A study of Mus musculus with 12 samples.

Results

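The 8 genes described here, Tex19.1, Dppa2, Dppa3, Dppa4, Dppa5a, Zfp42, Pou5f1 and Nanog, are known for their expression in pluripotent cells, the germline or the early embryo, and they were chosen by name from the 21938 protein-coding genes of the mouse annotation. The choice was made with earlier results of these data known. For each gene, open chromatin was read from peaks within 1000 bp of any annotated transcript start (called start peaks below), in the gene body and within 50 kb of the gene. The peaks came from 12 ATAC-seq libraries, an assay in which a transposase cuts and tags accessible DNA. The libraries were made from B16F10, a mouse melanoma line, and 4T1, a mouse mammary carcinoma line. Each line was either left untreated (control) or exposed to decitabine (DAC), a cytidine analogue that traps DNA methyltransferases, for 48 h. The dose was 0.1 µM in B16F10 and 1 µM in 4T1, so that line and dose differ together. Each of the 4 groups held 3 libraries, and dead cells had been taken out with beads before nuclei were prepared. The labels number the replicates without saying whether they were separate cultures, so every p-value measures only the spread between these libraries.

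As background, Pou5f1 encodes Oct4, a POU-domain factor, and Nanog encodes a homeobox factor, and both stand at the centre of the transcription network of embryonic stem cells. Zfp42 encodes Rex1, a zinc finger protein that marks naive stem cells. Dppa2 and Dppa4 are neighbouring genes whose SAP-domain proteins bind each other and prime early embryonic genes. Dppa3 encodes Stella, a maternal factor that guards DNA methylation in the zygote, and Dppa5a encodes a KH-domain RNA-binding protein of early embryos. Tex19.1 encodes a mammalian-specific protein of the germline, placenta and stem cells that takes part in the control of retrotransposons. In somatic cells such genes are usually silent, and the promoters of several of them carry DNA methylation.

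The authors listed peaks for each library separately, 49622 to 53316 on assembled chromosomes in B16F10 controls, 54032 to 58468 in B16F10 DAC, 89780 to 94229 in 4T1 controls and 108083 to 118603 in 4T1 DAC. The lists hold no read counts, so the depth behind a peak is unknown and the absence of a peak means only that none passed the caller's threshold. Of 21938 genes, 54.5 to 56.1% had a start peak per B16F10 library, against 61.2 to 61.7% in 4T1 controls and 66.3 to 67.4% in 4T1 DAC libraries. The median fold enrichment of all peaks was 8.07 to 8.38 in 4T1 controls and 5.60 to 6.05 in 4T1 DAC libraries, and 8.21 to 8.64 against 7.49 to 7.67 in B16F10. Start peaks were found at 8 of 10 melanocyte markers in every B16F10 library and at 12 of 12 epithelial markers in every 4T1 library, which fits the labelled lines. Melanocyte markers had 2 of 10 in each 4T1 control and 4 of 10 in each 4T1 DAC library, and epithelial markers 2 or 3 of 12 in B16F10. Leukocyte markers had 2 or 3 of 8 in each library. Fibroblast and endothelium markers had 5 of 8 in each 4T1 library and 2 or 3 of 8 in B16F10. The numbers of peaks differ between the arms in the direction of the gains below, and their part in the results is given where an equal number of peaks per library was used.

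Start peaks were stronger in DAC libraries than in controls at Tex19.1 in both lines, and Dppa2 had start peaks in all B16F10 DAC libraries and in no B16F10 control, while 5 of the 8 genes had no start peak in any of the 12 libraries. Called in DAC libraries alone means a start peak in 3 of 3 DAC libraries and in no control. In B16F10, 2 of 8 genes, Tex19.1 and Dppa2, were called in this way, where 0.283% of all genes were (62 of 21938). In 4T1 no member was, where 4.42% of all genes were (969 of 21938). Because the 8 genes were chosen with earlier results of these data known, their shares are no independent test against those of all genes. No member was called in control libraries alone, with a background of 0.0866% in B16F10 and 0.36% in 4T1. Dppa3, Dppa4, Dppa5a, Zfp42 and Nanog lacked a start peak in every library, as did 27.3% of all genes. Pou5f1 had start peaks in all 6 4T1 libraries, as did 59.3% of all genes, and in no B16F10 library, as did 41.3%. Among genes with no control start peak, 0.646% gained one in all 3 DAC libraries in B16F10 and 11.8% in 4T1. The count of 2 in B16F10 became 1, Tex19.1, when peaks needed a −log10 q of at least 5 or a fold enrichment of at least 5.

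**Figure D1:**
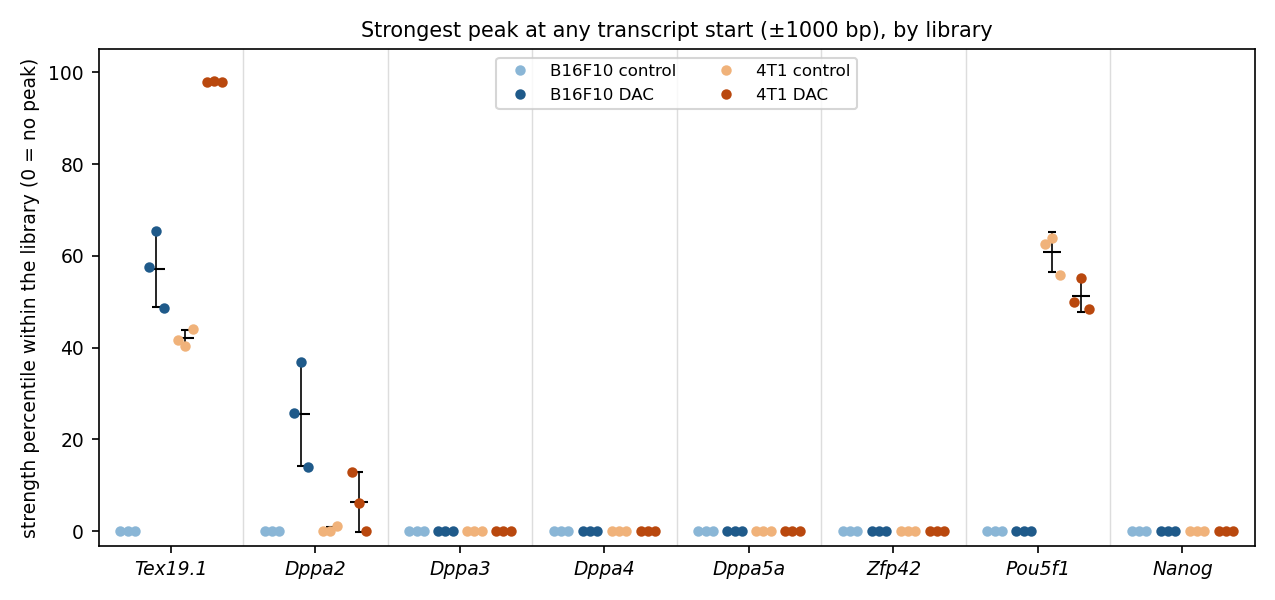
Strength percentile of the strongest start peak of each gene (y axis, percentile of −log10 q within the library, 0 where no peak was listed) in each library (points), with the mean and SD of each group of 3 (bars). Tex19.1 is at 0 in B16F10 controls and at 48.6 to 65.4 in B16F10 DAC, and goes from 40.4 to 44.0 in 4T1 controls to 97.9 to 98.2 in 4T1 DAC, while 5 genes stay at 0 throughout.

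Tex19.1 gave the clearest difference of the 8 genes. Its peak covered the 5′ end of the gene, which lies on the plus strand of chromosome 11, within the first exon and the sequence just before it. The merged region of all libraries is chr11:121145744-121146542 (GRCm38, the assembly that mm10 names). The 300 bases around its median summit in DAC libraries, chr11:121145872-121146171 on the plus strand, are shown because this is the only member start with a DAC gain in both lines. Capitals mark CpG dinucleotides, the sites of DNA methylation, and the window holds 19.
Tex19.1 start peak: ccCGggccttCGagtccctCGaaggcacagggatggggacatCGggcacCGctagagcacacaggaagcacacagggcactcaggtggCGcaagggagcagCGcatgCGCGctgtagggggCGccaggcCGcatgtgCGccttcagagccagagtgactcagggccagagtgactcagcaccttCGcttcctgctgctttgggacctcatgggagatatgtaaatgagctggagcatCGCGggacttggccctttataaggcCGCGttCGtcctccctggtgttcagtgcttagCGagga

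In B16F10 the 3 control libraries had no peak in this region. The DAC libraries had fold enrichments (a ratio to the local background, as the authors' caller gives it) of 8.74, 9.50 and 6.94. These peaks stood at the 57.5, 65.4 and 48.6 percentile of strength, the rank of a peak's −log10 q among all peaks of its own library. This rank still depends on the length of the list, and over all genes it differed between the arms by a mean of 0.692 points in B16F10 and 3.70 in 4T1, higher in DAC. All 3 DAC libraries thus lay in the middle of the range of peak strengths, and none of the controls reached the caller's threshold. Of the 62 genes called in B16F10 DAC libraries alone, Tex19.1 ranked 2 by the lowest of its 3 percentiles, 48.6, where the median of the 62 was 11.5. The first was Pbld1 with 71.6, named here after its value was seen.

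In 4T1 the Tex19.1 start was already open in the controls, with fold enrichments of 7.32, 6.69 and 7.46 and percentiles of 41.7, 40.4 and 44.0. The DAC libraries had fold enrichments of 15.84, 15.96 and 15.92 and percentiles of 97.9, 98.2 and 97.9. Every DAC library lay above every control and the groups were far apart, a moderate peak in the one and a peak among the strongest of the library in the other. The peak was also wider, 266 to 280 bp in controls and 718 to 799 bp in DAC libraries, and summits stayed between −176 and −108 bp from the 5′ end in both arms (negative is upstream). In B16F10 DAC libraries the widths were 503 to 721 bp with summits at −154 to −108 bp.

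The mean percentile of Tex19.1 was 57.2 ± 8.37 (SD, n = 3) in B16F10 DAC against no peak in controls, and 98.0 ± 0.170 against 42.0 ± 1.86 in 4T1 (n = 3 each). The difference was 57.2 percentile points in B16F10 and 56.0 in 4T1. Within a line the exact permutation test (two-sided, 20 relabellings) gave p = 0.1 in both, the smallest it can give. With treatment relabelled in both lines at once, the mean difference of 56.6 had p = 0.005 (exact permutation, two-sided), again the smallest possible. After Benjamini-Hochberg adjustment over 21938 genes it was 0.0922 in this exact permutation test, which no gene went below, so that 0 genes passed 0.05 while 4314 had an unadjusted p under 0.05. A p of 0.005 with higher values in DAC was shared by 5.14% of all genes. Every DAC library was above every control for 8.12% of genes in B16F10 and 40.9% in 4T1. The differences of the lines differed by −1.20 points, 4T1 minus B16F10 (exact permutation p = 0.925), which does not show that they were equal. The sign of this value turned with the setting. The B16F10 and 4T1 differences were 52.3 and 57.0 with an equal number of peaks per library, 49.4 and 59.7 at a −log10 q of at least 5, and 43.3 and 71.6 at a minimum fold enrichment of 5.

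Tex19.1 ranked near the top of all genes by the size of its 4T1 difference. Of 13013 genes with a start peak in all 6 4T1 libraries, 3 including Tex19.1 had a percentile difference at least as high (0.0231%), and the median difference was 2.66. The others were Zfp354b, with 64.8, and 1700014D04Rik, with 60.7, both named after their values were seen. Both came from weaker control peaks, at mean percentiles of 13.68 and 12.02. By fold enrichment the DAC to control ratio of Tex19.1 was 2.22, where the median of the 13013 genes was 0.966. A ratio at least as high was found for 8 genes including Tex19.1. No test was made of this ranking.

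**Figure D2:**
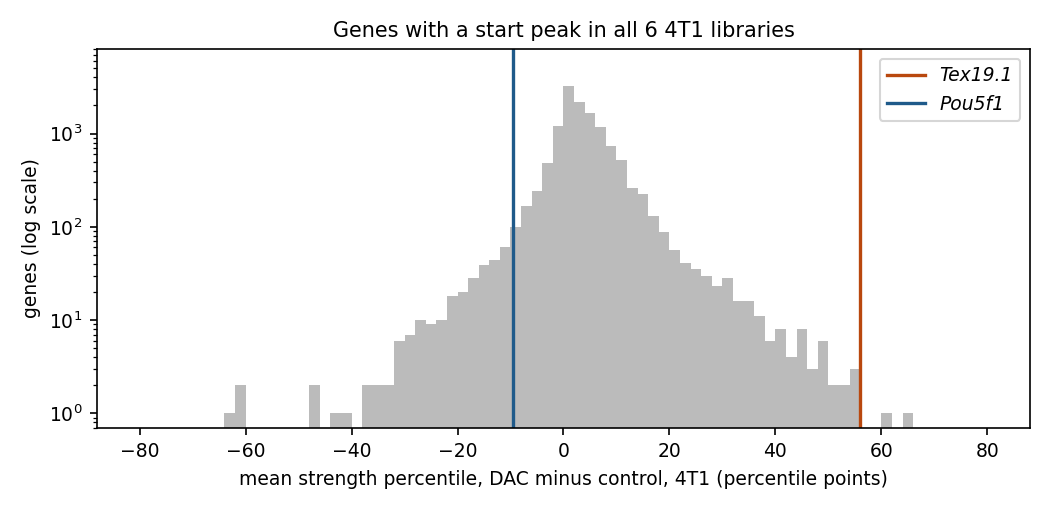
Distribution of the difference in mean strength percentile, DAC minus control (x axis, percentile points), over the 13013 genes with a start peak in all 6 4T1 libraries (y axis, number of genes, log scale), with Tex19.1 at 56.0 and Pou5f1 at −9.59 as vertical lines. Tex19.1 lies at the upper edge, and 2.17% of the genes lie as low as Pou5f1, whose peak lies inside the gene and not at its 5′ end.

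The surroundings of Tex19.1 showed which elements changed with it. A peak 2.7 kb upstream (chr11:121143194-121143758), present in all 6 4T1 libraries and in no B16F10 library, had fold enrichments of 11.96, 12.68 and 13.54 in controls and 4.74, 4.75 and 4.62 in DAC libraries. Its strength percentile was 64.3 ± 2.36 in controls and 65.4 ± 2.03 in DAC (SD, n = 3), ranks from lists of different lengths that show no change by themselves. Its fold enrichment was lower in all 3 DAC libraries than in all controls, while that of the start peak was higher. Tex19.2, a paralogue of Tex19.1 on the same chromosome, had a peak at its start in 3 of 3 4T1 DAC libraries at fold enrichments of 16.01, 15.42 and 14.48. In 4T1 controls 1 of 3 had a peak there, at 5.16, and in B16F10 1 control and no DAC library had one, at 4.28. The paralogue thus lacked the B16F10 DAC peak of Tex19.1. The copies are related in sequence, and how reads that match both were treated is not stated in the labels.

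A CpG-rich region 10.5 kb downstream of the Tex19.1 5′ end, chr11:121156116-121157134, was called in 4T1 DAC libraries alone. It holds 67 CpG, 6.58 per 100 bp, and its fold enrichments were 3.68, 3.62 and 3.13. Another region, 19.5 kb upstream, was also called in 4T1 DAC libraries alone, at a mean fold enrichment of 3.91. In B16F10, 2 controls and no DAC library had a peak there. Over the whole neighbourhood of 50 kb the 4T1 controls had 7, 8 and 7 peaks and the DAC libraries had 11 each. In B16F10 the controls had 6, 5 and 6 and the DAC libraries 8, 8 and 4, which overlap. The start peak itself was the only one of the 20 regions around Tex19.1 that B16F10 called in DAC libraries alone.

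Across the 12 libraries, 35 other genes had the same calls as Tex19.1, absent in B16F10 controls and present in the other 9 libraries (0.160% of all genes). The closest in strength were Rab37, a small GTPase gene also on chromosome 11, with a mean absolute difference of 10.5 percentile points over the 12 libraries, and Gm28041 and Zfp456 on chromosome 13, each with 13.6. Gm28041 and Zfp456 had equal values, as genes with the same start peaks do. These are descriptions of likeness over 12 libraries from 2 lines.

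Dppa2 showed a weaker form of the B16F10 pattern. Its start region, chr16:48303623-48304266 on the plus strand, covers the 5′ end and overlaps an exon of the gene. B16F10 controls had no peak there, and the DAC libraries had fold enrichments of 5.76, 6.99 and 4.53 and percentiles of 25.8, 37.0 and 14.0. The 3 DAC libraries were above all controls. The 300 bases around the median summit, chr16:48304034-48304333 on the plus strand, are shown because they contrast with the Tex19.1 window. They lie wholly after the 5′ end and run past the end of the merged region. They hold 1 CpG (in capitals) and an unbroken run of 36 A bases. Of 16522 RefSeq promoters of the same length, 4.96% hold fewer CpG, but these run from 250 bases before a start to 50 after it. Of the merged region, 17.5% is soft-masked repeat, and how reads from repeated sequence were placed is not stated in the labels.
Dppa2 start peak: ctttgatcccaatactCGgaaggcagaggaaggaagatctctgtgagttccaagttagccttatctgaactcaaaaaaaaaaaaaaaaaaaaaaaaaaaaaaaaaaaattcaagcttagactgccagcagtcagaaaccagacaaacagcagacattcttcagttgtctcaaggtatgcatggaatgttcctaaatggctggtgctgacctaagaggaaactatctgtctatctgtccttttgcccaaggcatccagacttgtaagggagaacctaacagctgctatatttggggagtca

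In 4T1, Dppa2 start peaks were thin in both arms. Control replicate 3 had one with a fold enrichment of 2.79 at the 1.13 percentile. DAC replicates 1 and 2 had 3.34 and 2.80, at percentiles of 13.0 and 6.14, and DAC replicate 3 had none. The arms overlapped. The summits of the B16F10 DAC peaks lay 242 to 295 bp after the 5′ end, and those of 4T1 lay at −182 to −65 bp from it, so the lines did not share a summit. The interval of B16F10 DAC replicate 3 touched none of the 4T1 intervals.

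The mean percentile of Dppa2 in B16F10 DAC was 25.6 ± 11.5 (SD, n = 3) against no peak in controls (exact permutation, two-sided, p = 0.1, the smallest possible). In 4T1 it was 6.38 ± 6.50 against 0.375 ± 0.650, with an exact permutation p of 0.4. Over both lines the difference of 15.8 had an exact permutation p of 0.02 and an adjusted p of 0.150, which did not pass. It was 8.54 with an equal number of peaks per library and 3.87 when a fold enrichment of at least 5 was asked for. The difference between the lines, −19.6 points, had an exact permutation p of 0.155. Among the 62 genes called in B16F10 DAC libraries alone, Dppa2 ranked 28. No other gene had its pattern of calls over the 12 libraries.

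Dppa4, whose 5′ end lies 20175 bp from that of Dppa2 on the same strand, had no start peak in any library. The single peak in its body was an intron region, chr16:48291543-48292132, called in all 6 B16F10 libraries and in no 4T1 library. Its fold enrichments were 6.47, 7.89 and 3.93 in controls and 6.15, 7.99 and 7.17 in DAC libraries, which overlap. The 2 partner genes thus shared a neighbourhood in which only the Dppa2 start was called in B16F10 DAC libraries alone. B16F10 controls had 1 peak within 50 kb of each gene and DAC libraries had 2, which were these 2 regions. A count above every control was found in B16F10 for 6.89% of all genes.

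**Figure D3:**
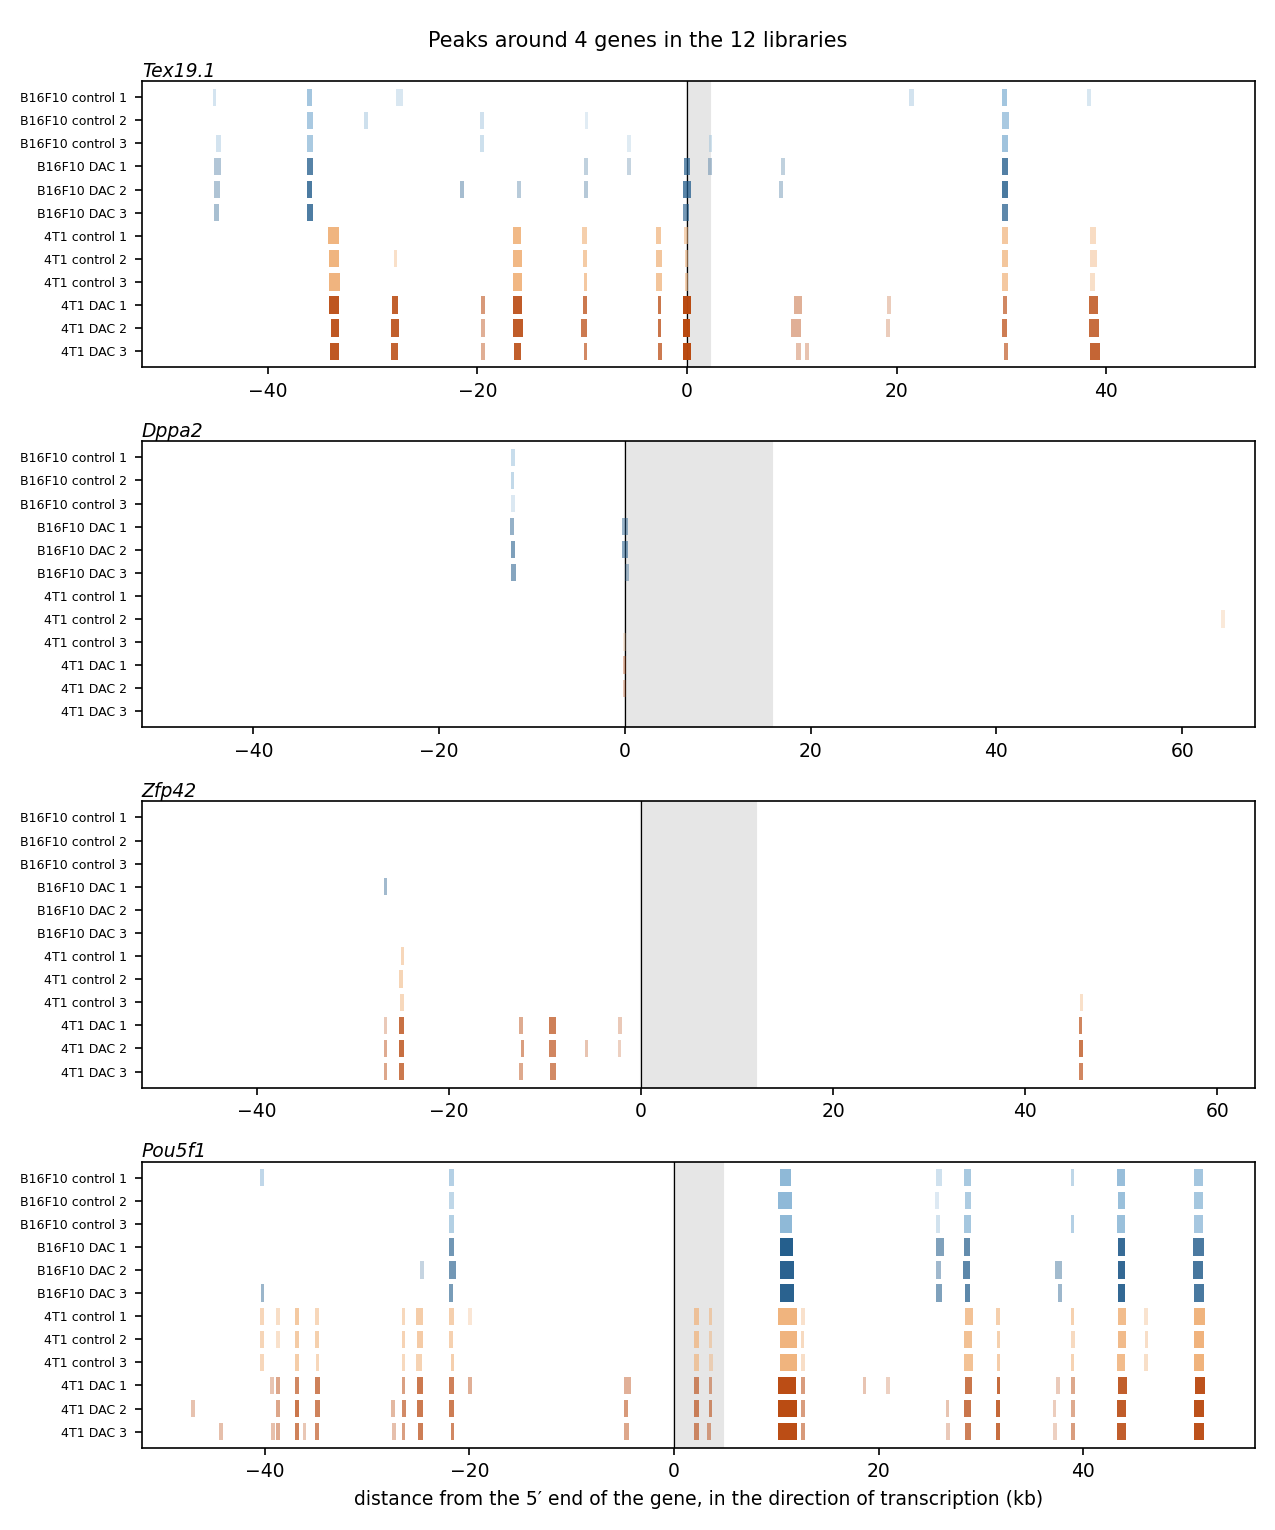
Peaks within 50 kb of Tex19.1, Dppa2, Zfp42 and Pou5f1 (x axis, distance from the 5′ end in kb, in the direction of transcription) in each of the 12 libraries (y axis), with the gene body shaded grey and darker bars for a higher strength percentile. The widths of short peaks are drawn at a minimum so that they can be seen. The Tex19.1 start is filled in 9 libraries, the Zfp42 start in none, and Pou5f1 has its pair of gene-body peaks in the 6 4T1 libraries.

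Pou5f1 was open in 4T1 inside the gene and not at its 5′ end. In all 6 4T1 libraries 2 peaks lay within the gene, on chromosome 17 at chr17:35507990-35508480 and chr17:35509238-35509771, 2.2 and 3.5 kb after the 5′ end. They contain no annotated start, and the nearest ones, internal to the gene, are 325 and 417 bp away. No B16F10 library had either. The stronger of them had fold enrichments of 12.4, 12.6 and 10.8 in controls and 6.32, 6.44 and 6.27 in DAC libraries. Its percentiles were 62.61, 63.97 and 55.84 in controls and 50.0, 55.2 and 48.5 in DAC libraries. All DAC libraries were below all controls on both scales, by a small margin in percentile. If only the 5′ end of the gene counted as a start, Pou5f1 had no start peak in any library.

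The mean percentile of Pou5f1 in 4T1 was 51.2 ± 3.51 in DAC against 60.8 ± 4.35 in controls (SD, n = 3), a difference of −9.59 (exact permutation, two-sided, p = 0.1, the smallest possible). Over both lines the difference of −4.80 had an exact permutation p of 0.1 and an adjusted p of 0.267, which did not pass. The difference in 4T1 was −20.8 with an equal number of peaks per library, and −27.4 at a minimum fold enrichment of 5. Every DAC library was below every control for 5.84% of all genes in 4T1. Of the 13013 genes with start peaks in all 6 4T1 libraries, 2.17% had a difference as low, and 1.69% had a fold enrichment ratio as low as its 0.532. The median ratio of these genes was 0.966. Over all peaks, at starts or not, the median fold enrichment was 8.07 to 8.38 in 4T1 controls and 5.60 to 6.05 in 4T1 DAC libraries. The Pou5f1 peak lies inside the gene, and it was not ranked among peaks away from 5′ ends.

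The neighbourhood of Pou5f1 held the most peaks of the 8 genes, 16 to 18 within 50 kb in 4T1 controls and 20 to 22 in 4T1 DAC libraries, without overlap, as 33.9% of all genes had. The mean difference of 4.00 turned to −0.667 with an equal number of peaks per library and to −3.33 at a minimum fold enrichment of 5. In B16F10 it held 6 to 8 in both arms. A region 4.6 kb before the 5′ end, chr17:35501106-35501808, was called in 4T1 DAC libraries alone, with fold enrichments of 4.07, 5.33 and 4.78. The shared start of Tcf19 and Cchcr1, 11.1 kb downstream, was open in all 12 libraries at percentiles of 93.3 to 97.2. Cdsn, which encodes the skin adhesion protein corneodesmosin, had a start peak in the 3 4T1 controls, at fold enrichments of 2.80, 2.97 and 3.00, and in no DAC library. Regions near the starts of H2-Q10, a class I histocompatibility gene, were called in all 6 4T1 libraries, one near Psors1c2 in all 6 B16F10 libraries, and Gm19553 shares the farther gene-body region of Pou5f1.

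Zfp42 lies on the minus strand of chromosome 8 and had no peak at its start or in its body in any library, while 4T1 DAC libraries listed more peaks around it than controls. Within 50 kb, 4T1 controls had 1, 1 and 2 peaks and DAC libraries had 6, 7 and 5. B16F10 controls had none and B16F10 DAC libraries had 1, 0 and 0. The groups did not overlap in 4T1, as for those 33.9% of all genes. The mean difference over both lines was 2.50 peaks with an exact permutation p of 0.05 and an adjusted p of 0.257, which did not pass.

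The nearest of the Zfp42 regions called in 4T1 DAC libraries alone, chr8:43315839-43316561, lies 9.2 kb before the 5′ end. It had fold enrichments of 7.80, 6.40 and 6.52 and percentiles of 59.4, 54.3 and 51.8, above the middle of the peaks of those libraries. The next, chr8:43319276-43319751, lies 12.5 kb before the 5′ end, with fold enrichments of 4.11, 4.64 and 4.36. It holds 6.72 CpG per 100 bp, and 60.1% of its bases are soft-masked repeats, against 21.9% in the nearest. How reads from repeated sequence were placed is not stated in the labels, and whether these 2 regions act on Zfp42 was not tested. The third of these, 26.6 kb before the 5′ end, had fold enrichments of 2.90, 4.13 and 4.78, and B16F10 DAC replicate 1 had a peak there too. A region present in all 6 4T1 libraries 24.9 kb before the 5′ end stood at percentiles of 35.3, 39.2 and 33.7 in controls and 69.9, 71.8 and 64.3 in DAC libraries. It holds 1.43 CpG per 100 bp, near the 1.34 of the third region and below the 4.15 and 6.72 of the nearer regions.

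The promoter of Zfp42, chr8:43306960-43307259 on the minus strand, is shown as a member start that had no peak in any library. It holds 11 CpG (capitals), and 1 match to the octamer ATTTGCAT, the DNA word that Oct4 binds, which 1.65% of 16522 promoters hold on either strand.
Zfp42 promoter: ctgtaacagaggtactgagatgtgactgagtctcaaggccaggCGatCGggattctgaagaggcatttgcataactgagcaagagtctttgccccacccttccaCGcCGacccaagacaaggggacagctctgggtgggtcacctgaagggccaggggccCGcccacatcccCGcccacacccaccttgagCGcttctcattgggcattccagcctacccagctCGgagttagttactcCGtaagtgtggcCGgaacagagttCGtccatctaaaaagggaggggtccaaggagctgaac

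Dppa3 and Nanog lie 81079 bp apart on chromosome 6 and share a part of their neighbourhoods. Neither had a peak at its start or in its body. Within 50 kb of Dppa3, 4T1 controls had 2, 3 and 4 peaks and DAC libraries 5, 6 and 4, which overlap. A region in an exon of the neighbouring gene Apobec1, which encodes a cytidine deaminase that edits RNA, was called in 4T1 DAC libraries alone (chr6:122596579-122597101, fold enrichments of 7.12, 6.80 and 9.24). The start of Apobec1 was open in all 12 libraries at percentiles of 66.6 to 74.0.

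Around Nanog no region was called in 1 arm alone in either line. The region nearest before its 5′ end that all libraries of a line called lies 17.6 kb upstream, chr6:122689469-122690321. It was called in 4T1 and not in B16F10, at fold enrichments of 21.3, 21.9 and 21.7 in controls and 20.2, 21.6 and 19.5 in DAC libraries. The arms overlapped. A region in an intron of Slc2a3, chr6:122758447-122759430, called in the same 6 libraries, had fold enrichments of 21.5, 22.5 and 21.7 in controls and 22.3, 23.3 and 24.4 in DAC libraries. Within 50 kb the mean number of peaks was 5.33 in 4T1 controls and 5.67 in DAC, and 2.67 against 3.00 in B16F10.

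Dppa5a, on the minus strand of chromosome 9, had no peak at its start or in its body. The region nearest to it, 4.7 kb after the 5′ end (chr9:78363037-78363822), was called in all 6 B16F10 libraries and in no 4T1 library. The start of Gsta2, a glutathione transferase gene, was likewise open in all 6 B16F10 libraries, and a second Gsta2 start region had peaks in all 6 4T1 and 3 of 6 B16F10 libraries. The clearest DAC gain near Dppa5a was at another gene, the start of Ddx43, a DEAD-box helicase gene known as a cancer-testis antigen, which it shares with 4930542C12Rik. This region, chr9:78395541-78396429, holds 102 CpG, 11.5 per 100 bp. The 3 4T1 DAC libraries had fold enrichments of 9.03, 8.33 and 7.86 and percentiles of 60.9, 59.4 and 54.4, and the controls and all B16F10 libraries had no peak.

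The 300 bases around its median summit, chr9:78395629-78395928 on the minus strand (that of Dppa5a), are shown beside the Tex19.1 window because Ddx43 had its DAC peak in 4T1 and not in B16F10. They hold 35 CpG (capitals), and 91.1% of RefSeq promoters hold fewer, although this window was placed on a summit and those on a start.
Ddx43 start peak: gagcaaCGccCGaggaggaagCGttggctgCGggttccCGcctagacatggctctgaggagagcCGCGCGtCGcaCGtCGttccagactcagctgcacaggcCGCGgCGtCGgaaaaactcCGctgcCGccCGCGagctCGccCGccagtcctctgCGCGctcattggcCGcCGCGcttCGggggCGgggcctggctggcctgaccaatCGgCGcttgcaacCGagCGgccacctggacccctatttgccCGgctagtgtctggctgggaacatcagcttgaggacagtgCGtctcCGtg
A region near the non-coding gene Gm8087 went the other way, with peaks in the 3 4T1 controls at fold enrichments of 5.65, 4.79 and 4.99 and in no DAC library.

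Taking the neighbourhoods of all 8 genes as one set of 88 distinct regions, 42 had a peak in B16F10 and 71 in 4T1. In B16F10, 2 of 42 were called in DAC libraries alone, the starts of Tex19.1 and Dppa2, where 2.27% of all regions with a B16F10 peak were, and none in control libraries alone, where 0.892% were. In 4T1, 9 of 71 were, near the background of 12%, and 3 of 71 were called in control libraries alone, where the background was 3.57%. The 4T1 share around these genes is thus close to that of the whole genome. The mean number of peaks within 50 kb differed by 3.67 for Tex19.1, 4.67 for Zfp42 and 4.00 for Pou5f1 in 4T1, and by 2.00 or less for the other 5 genes, where the mean over all genes was 1.49. In B16F10 the differences lay between −0.333 and 1.00, with a mean over all genes of 0.306. No gene of the 21938 passed an adjusted p of 0.05 in the exact permutation test over both lines, and 3355 had an unadjusted p under 0.05.

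**Figure D4:**
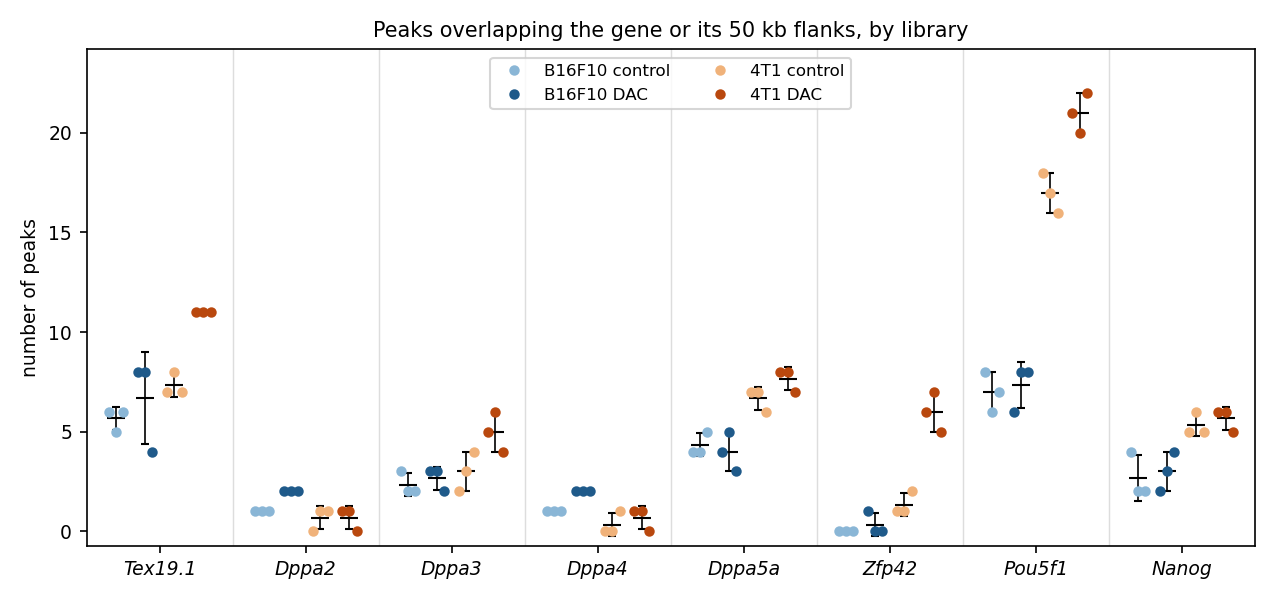
Number of peaks overlapping each gene or its 50 kb flanks (y axis) in each library (points), with the mean and SD of each group of 3. In 4T1 the DAC libraries lie above the controls without overlap for Tex19.1 (11 each against 7 or 8), Zfp42 (5 to 7 against 1 or 2) and Pou5f1 (20 to 22 against 16 to 18), as for 33.9% of all genes.

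For Tex19.1 and Pou5f1 the sign of the 4T1 difference in these counts depended on the setting. A minimum fold enrichment of 5 kept 72.8 to 75.7% of peaks in 4T1 controls and 55.7 to 59.6% in 4T1 DAC libraries. It thus took a larger share from the DAC arm. Over all genes, start peaks in 4T1 DAC libraries alone went from 969 genes to 258 with it. Those in 4T1 control libraries alone went from 79 to 272. When a minimum fold enrichment of 5 was asked for, the 4T1 difference was −0.333 for Tex19.1, −3.33 for Pou5f1 and 1.67 for Zfp42. With an equal number of peaks per library it was 2.33 for Tex19.1, −0.667 for Pou5f1 and 3.33 for Zfp42. In gene bodies, mean differences were 0 in 4T1 for all 8 genes, and in B16F10 they were 1.00 for Tex19.1 and Dppa2 and 0 for the others. In B16F10, Dppa2 was the only member with more gene-body peaks in every DAC library than in every control, as 3.1% of all genes had. The counts of Tex19.1 and Dppa2 come from their start peaks and, for Tex19.1, a peak at the end of the gene in 1 control and 1 DAC library.

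Starts of the 8 genes differ in CpG content, the substrate of the methyltransferases that DAC traps. Within 1000 bp of the 5′ end, Tex19.1 had 2.60 CpG per 100 bp and Dppa2 0.6997, the highest and the lowest of the 8 genes, and the median of all genes was 3.05. The other members ranged from 1.35 in Dppa4 to 2.50 in Zfp42. Within 250 bp of the 5′ end, Tex19.1 had 5.39 against a median of 4.59, and it was the only member above it. So the 2 genes called in B16F10 DAC libraries alone stood at opposite ends of the group. The 62 genes called so in B16F10 had a median of 1.72 CpG per 100 bp within 1000 bp, and the 969 in 4T1 had 4.30, a description with no test.

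**Figure D5:**
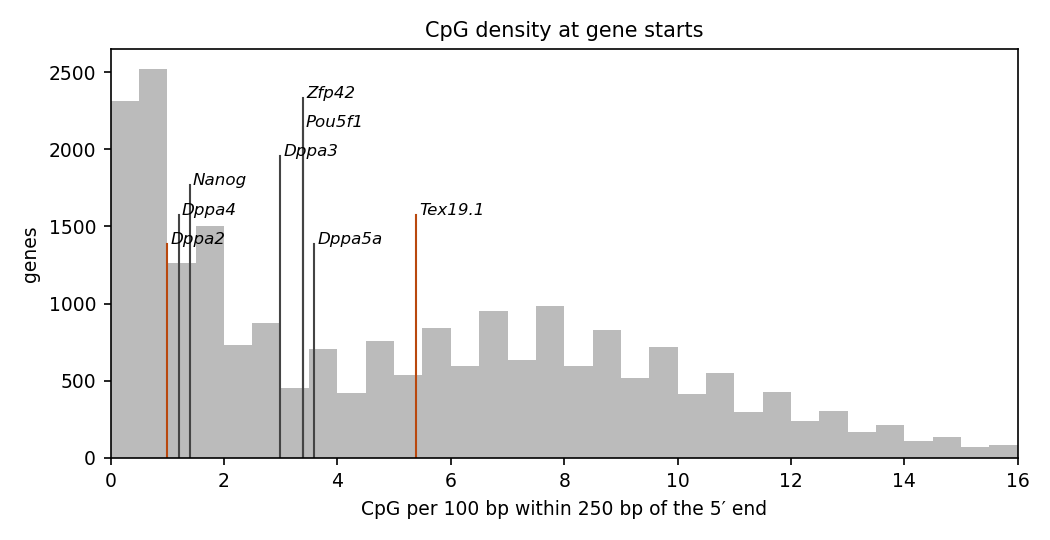
CpG per 100 bp within 250 bp of the 5′ end (x axis) for all 21938 genes (y axis, number of genes), with the 8 members as vertical lines of arbitrary height, Tex19.1 and Dppa2 in orange. Tex19.1 at 5.39 lies above the median of 4.59, and Dppa2 at 0.998 is the lowest member.

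Motifs were sought by exact letters on both strands. The Tex19.1 start window holds 2 matches to TGANTCA, the AP-1 word that 7.10% of 16522 RefSeq promoters hold, and 1 match to TCCCGC, an E2F word that 26.5% hold. It holds none to CACGTG, the E-box, which 8.11% hold. The Dppa2 window, which lies after the 5′ end and so is unlike a promoter window, holds 1 match to CCAAT (38.7% of promoters) and none to the others. The RefSeq promoters of Zfp42 and Pou5f1 hold 2 and 1 matches to GGGCGG, the GC box (48.0%), and 1 match each to CCAAT. The Nanog promoter holds no exact match to the 8 words searched, which also included the SOX word ACAATGG (2.93%) and the CRE word TGACGTCA (2.43%). It does hold TTTTGCAT and ACAATGT, each 1 base away from the octamer ATTTGCAT and the SOX word. An exact search misses such near matches, so it does not show that a binding site is lacking. CpG counts of these promoters were 16 in Tex19.1, 11 in Zfp42, 11 in Pou5f1 and 4 in Nanog, with a median of 14 over the table, which does not list Dppa2, Dppa3, Dppa4 and Dppa5a.

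Among 28 partner genes of the pluripotency network, 5 were called in 4T1 DAC libraries alone, 17.9% against 4.42% of all genes, and none in B16F10. These were Tbx3, a T-box factor, with percentiles of 60.3, 47.4 and 56.0 in the DAC libraries, Sall4, a zinc finger factor, with 30.7, 41.6 and 37.0, and Sox2, the partner of Oct4, with 26.2, 37.3 and 34.8. Utf1, a chromatin factor of stem cells, had 15.3, 36.7 and 24.9, and Fgf5, a growth factor of the epiblast, had 8.38, 19.6 and 24.9. Their 4T1 controls had no start peak. The 4T1 DAC lists were longer than those of controls, and the 28 genes were not recounted with an equal number of peaks per library. For all genes the share fell to 2.39% in that setting. Such a recount drops the lowest percentiles first, where Utf1 and Fgf5 had theirs. The list was chosen with earlier results of these data known. Per library, 11 or 12 of the 28 had a start peak in 4T1 controls and 18 to 20 in DAC libraries, and 7 to 9 in B16F10 in both arms.

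Among 26 oocyte and early embryo genes none was called in 1 arm alone in either line. Between 5 and 8 had a start peak per 4T1 library and 4 or 5 per B16F10 library, and the arms overlapped in both lines. Of all genes, 61.2 to 67.4% had one per 4T1 library and 54.5 to 56.1% per B16F10 library. All 16 genes of a list of repressors of germline and embryo genes, among them Dnmt1, Uhrf1, E2f6 and Setdb1, had a start peak in each of the 12 libraries. So did all 10 genes of a housekeeping list. Of all 21938 genes, 11554 had a start peak in all 6 B16F10 libraries and 59.3% in all 6 4T1 libraries. Of the 10 melanocyte markers, Sox10 and Pax3 were called in 4T1 DAC libraries alone, where 4.42% of all genes were. Of the 8 leukocyte markers, Spi1 was called in 4T1 control libraries alone, where 0.36% of all genes were, with percentiles of 32.1, 29.8 and 23.3.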

How the data were processed

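The 12 ATAC-seq libraries were described by 1 peak list each, called by the authors per library. The submitters' processing notes name FastQC, MultiQC, Bowtie2, Picard, MACS2, DiffBind, ChIPseeker and mm10, and their versions, options and roles are not given in the sources used here. The deposited fold enrichment is a ratio to local background, the deposited −log10 p-value and q-value are within a library, and the deposited score repeats the q-value. Every list ended at a q of 0.05, which limits the absence of a peak. Depth and read counts are unknown, so no counting interval could be given.

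Peaks on the 21 assembled chromosomes were overlapped by at least 1 bp with 93513 transcript starts of protein-coding genes (GENCODE M21, GRCm38). The strength percentile is the rank of −log10 q within a library and 0 without a peak. Treatment labels were permuted exactly, 20 ways within a line and 400 over both, with Benjamini-Hochberg adjustment over 21938 genes, and the permutation was tested on simulated data. The members and lists were chosen with earlier results of these data known. Genes named are the 8 members, list genes called in 1 arm alone, genes starting within 1000 bp of a region called in all 3 libraries of a group, and up to 3 genes of like pattern per member called in 1 arm alone. Pbld1, Zfp354b, 1700014D04Rik, Slc2a3 and the repressor and marker genes named as examples fall outside this rule and were chosen after their values were seen. Alternatives were a stricter q, a minimum fold enrichment of 5, the same number of peaks per library (49622 in B16F10, 89780 in 4T1), other windows, summits, 2 of 3 libraries, a replicate block and each library left out. Sequences are from GRCm38 and the RefSeq promoter table of that build. Python 3.11.15, numpy 2.4.6, pandas 2.3.3 and scipy 1.17.1 were used.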

Additional observations from a re-analysis of the deposited data

How the results depend on the processing

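Member counts called in 1 arm alone kept their values under 54 of 56 settings. Most of these were counts of 0 that stayed 0, in control libraries alone in both lines and in DAC libraries alone in 4T1. Leaving out 1 library or asking for 2 of 3 only loosens the rule, so the B16F10 count could not fall there. The B16F10 count of 2 in DAC libraries alone became 1 at a −log10 q of at least 5 and also 1 at a minimum fold enrichment of 5. The Tex19.1 percentile difference over both lines stayed between 52.5 and 57.5 when the peaks, windows or strength measure were changed, and between 54.5 and 58.7 with 1 library left out. Numbers of peaks within 50 kb were less stable, and all 22 changes of sign among values of single genes (DAC minus control) were theirs. At a minimum fold enrichment of 5 they were −0.333 for Tex19.1 in both lines together, −0.333 in B16F10 and −0.333 in 4T1, −0.833 for Dppa5a (both) and −1 (4T1), −1.5 for Pou5f1 (both) and −3.33 (4T1), and −0.167 for Nanog (both) and −0.333 (B16F10). At a −log10 q of at least 5 they were −0.333 for Tex19.1 and −0.333 for Nanog in B16F10 and −0.167 for Dppa5a (both). With equal numbers of peaks they were −1 for Tex19.1 in B16F10, −0.167 for Dppa5a (both), −0.333 for Pou5f1 (both) and −0.667 (4T1). For Dppa5a, flanks of 25 kb gave −0.167 (both) and flanks of 100 kb gave −1.33 (both) and −1.67 (4T1). Leaving out 1 library each gave −0.833 to 0.167 for Dppa5a, −0.167 to 1 for Pou5f1 and −0.167 to 1 for Nanog in B16F10, all with main differences of at most 0.333 peaks in size. The cause was not tested. Same-numbered control and DAC libraries correlated at −0.0679 to 0.0238 in their deviations over 15938 genes, and differently numbered ones at −0.0571 to 0.0564. These values show no pairing by number, but they cannot exclude it, and the labels do not state how replicates were made. With the number as a replicate block the Tex19.1 difference of 56.6 had an exact permutation p of 0.03125, the smallest of 64 relabellings, and that of Dppa2 had 0.0625. The adjusted p of Tex19.1 in this exact permutation test was 0.304.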
